A study of Mus musculus with 6 samples.

Results

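A group of 10 vascular basement membrane genes was followed in lung endothelial cells (ECs) after macrophage depletion: the type IV collagen chains Col4a1, Col4a2, Col4a3 and Col4a5, the short-chain collagen Col8a1, the multiplexins Col15a1 and Col18a1, the nidogens Nid1 and Nid2, and perlecan, Hspg2. The members were taken by symbol, as all probe sets that the array annotation assigns to 1 of these genes alone. This gave 19 of 45037 probe sets and 10 of 18193 genes. Clodronate-liposome ECs (3 arrays) came from NSG mice with lung metastases whose macrophages had been targeted, and PBS-liposome ECs (3 arrays) from NSG mice with metastases that received liposomes filled with PBS. NSG mice, which lack T, B and natural killer cells and were 6 to 8 weeks old, carried metastases of the human breast cancer line MDA-MB-231-LM2 in both groups. Liposomes were given on days 14, 16 and 18 after tail vein injection of the cancer cells, and lungs were taken on day 20. ECs were sorted as CD31-positive cells that were negative for CD45, CD11b, EpCAM, CD140a, CD140b and the GFP of the cancer cells. The design has no array of healthy lung, and clodronate liposomes are taken up by phagocytes of other organs too. In control signals added to each array and not made by the cells, clodronate-liposome replicates 1 and 3 lay below all other arrays. Clodronate-liposome replicate 2 lay within the PBS-liposome range. Hybridization controls read 11.91, 12.20 and 11.94 on the clodronate-liposome arrays, against 12.11, 12.24 and 12.12 on the PBS-liposome arrays.

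The basement membrane is the thin sheet of matrix on which ECs sit. Type IV collagen forms its covalent network, laminins form another, nidogens bridge both, and perlecan anchors growth factors through its heparan sulfate chains. Col4a1 and Col4a2 chains assemble together in nearly all vessels, whereas Col4a3, Col4a4 and Col4a5 chains assemble into a separate network best known from kidney glomeruli and lung alveoli. Collagens XV and XVIII decorate the membrane and carry the anti-angiogenic endostatin domain or its relative at their C-terminal ends. Collagen VIII is a network-forming collagen of the subendothelial layer.

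The comparison asked whether these genes depend on macrophages in metastasis-associated ECs. Values are log2 signals, in which a difference of 1 is a doubling, and signals are not compared between genes because probes differ in affinity. By limma 0 of the 19 member probe sets passed an adjusted p of 0.05, where 0.306% of all probe sets did. At an unadjusted p under 0.05 the members gave 3 probe sets, all higher after clodronate-liposome treatment, against 10.8% of all probe sets. All 3 clodronate-liposome arrays lay above all 3 PBS-liposome arrays in 4 member probe sets, against 7.97% of all probe sets. The opposite separation was found in 0 member probe sets, against 8.04% of all. The 4 separated probe sets belonged to Col4a3 (2), Col15a1 (1) and Col8a1 (1), and probe sets of 1 gene do not count as independent. By the brightest probe set of each gene, 8 members were above 0 and 2 below, with a median log2 difference of 0.08, where the median of all genes was -0.0031. The values of Col4a1 (0.06), Col4a2 (0.06) and Nid1 (0.03) were close to 0, and those farthest from it were of Col4a3 (0.90) and Col15a1 (0.65).

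**Figure D1:**
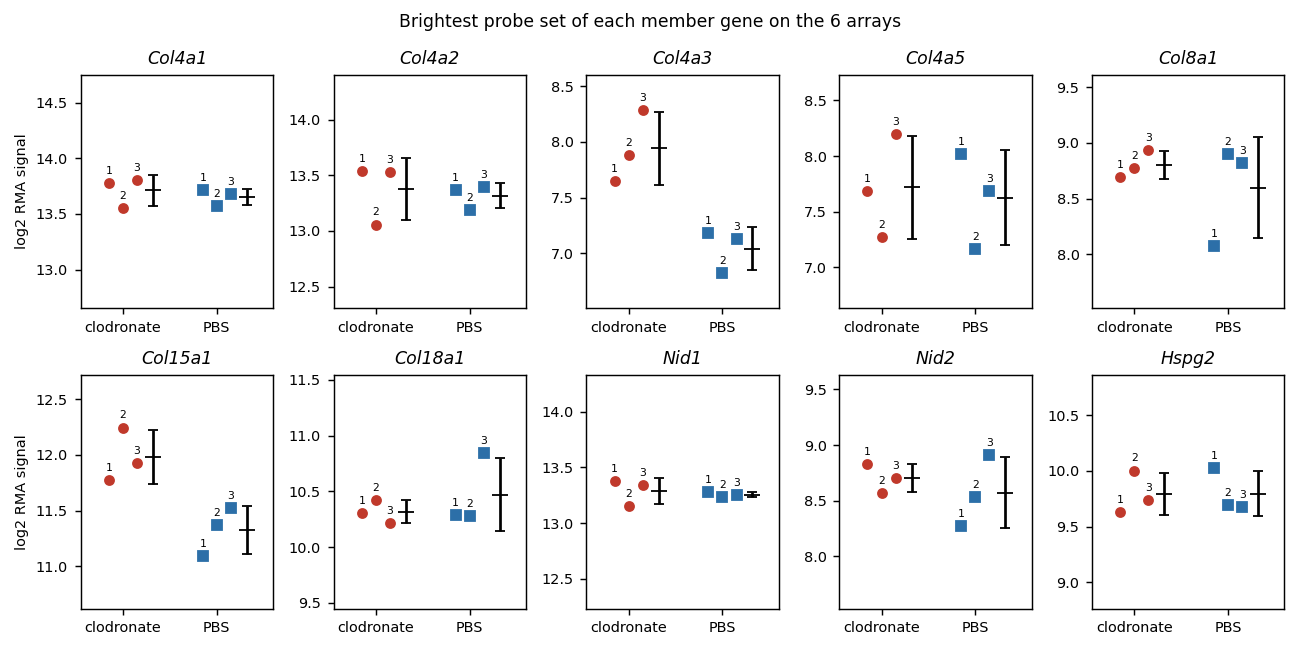
Log2 RMA signal (vertical axes, each spanning 2.1 log2 units) of the brightest probe set of each of the 10 member genes on the clodronate-liposome (red circles) and PBS-liposome (blue squares) arrays, with replicate numbers beside the points and black marks for the mean ± SD (n = 3 per group). Col4a3 and Col15a1 lay higher on every clodronate-liposome array, while the groups overlapped in the other 8 genes.

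Col4a1 and Col4a2 encode the chains of the main vascular network. Col4a1 read 13.78, 13.55 and 13.80 on the clodronate-liposome arrays, against 13.71, 13.57 and 13.68 on the PBS-liposome arrays. The groups overlapped, and replicate 2 was the lowest array of both groups. The log2 difference was 0.06 (SE 0.11, 95% confidence interval -0.19 to 0.30, adjusted p = 0.904). A second probe set of Col4a1 gave 0.11 (SE 0.11). Col4a2 read 13.54, 13.06 and 13.53 in clodronate-liposome ECs, against 13.37, 13.19 and 13.39 in PBS-liposome ECs. Replicate 2 was again the lowest array of each group. Its log2 difference was 0.06 (SE 0.15, interval -0.28 to 0.41, adjusted p = 0.935).

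Col4a1 and Col4a2 lie head to head on chromosome 8, and a promoter window is shown because both genes share it. The gene model of Col4a2 (plus strand) spans 11312805 to 11449287 and that of Col4a1 (minus strand) 11198423 to 11312889 in RefSeq (GRCm38.p6), so the models overlap, with their outer starts 84 bases apart. The RefSeq windows run from 250 bases before to 50 bases after 1 annotated transcript start, which can lie inside the outer end of the gene model. The start used for the Col4a2 window was 11312805 and that for the Col4a1 window 11312826, and the windows shared 78 bases. The Col4a2 window, chr8:11312555-11312854 on the plus strand, is printed with those shared bases in capitals:
Col4a2: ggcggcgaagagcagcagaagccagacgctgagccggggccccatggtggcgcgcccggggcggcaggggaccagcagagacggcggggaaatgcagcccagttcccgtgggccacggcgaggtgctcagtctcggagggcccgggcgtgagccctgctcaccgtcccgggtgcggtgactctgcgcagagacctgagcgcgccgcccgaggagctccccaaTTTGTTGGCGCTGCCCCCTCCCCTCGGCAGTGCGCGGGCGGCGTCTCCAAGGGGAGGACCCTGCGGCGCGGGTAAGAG
The window is GC-rich, with 73.7% G or C against a median of 52.7% over 32851 RefSeq windows. On either strand it held 3 matches to the GC box GGGCGG, a motif found in 35.7% of all windows, and 1 to the CCAAT box CCAAT, found in 37.4%.

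Col4a3 and Col4a5 encode chains of the other type IV networks, and the values of their probe sets lay near or below the array median of 8.13. Col4a3 (chromosome 1, 82586921 to 82722059) read 7.65, 7.88 and 8.29 on the clodronate-liposome arrays, against 7.18, 6.82 and 7.13 on the PBS-liposome arrays. The groups did not overlap, with a gap of 0.47 between the lowest clodronate-liposome and the highest PBS-liposome array. Its means were 7.94 ± 0.32 in clodronate-liposome ECs and 7.04 ± 0.19 in PBS-liposome ECs (SD, n = 3 each). The log2 difference of 0.90 (SE 0.18, interval 0.49 to 1.31), 1.87-fold higher, did not pass over all probe sets (limma, adjusted p = 0.112). The other probe set of Col4a3 read 7.19, 7.14 and 6.95 in clodronate-liposome ECs, against 6.64, 6.57 and 6.91 in PBS-liposome ECs. Its groups were separated by 0.039 only, with a log2 difference of 0.38 (SE 0.12, adjusted p = 0.303). When both probe sets were averaged and p adjusted over genes, Col4a3 passed, with a log2 difference of 0.64 (SE 0.11, adjusted p = 0.0412). That call is the single one made for a member gene in the settings tried. The averaged values were fitted with all arrays only, with no array left out, block or covariate. The share of all genes that passed in that fit was not recorded. With 1 array left out, the brightest probe set of Col4a3 ranged from 0.72 without clodronate-liposome replicate 3 to 1.04 without clodronate-liposome replicate 1.

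Col4a5, on chromosome X (141475370 to 141689236), varied as much within groups as between them. It read 7.69, 7.27 and 8.19 in clodronate-liposome ECs, against 8.02, 7.17 and 7.69 in PBS-liposome ECs. The log2 difference was 0.09 (SE 0.27, interval -0.54 to 0.72, adjusted p = 0.948), and leaving out 1 array moved it between -0.15 and 0.32. The other probe set of Col4a5 gave 0.15 (SE 0.22).

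Col4a4 and Col4a6, the remaining type IV chains, were read from the list of other collagens for comparison. Col4a4 read 8.14, 7.89 and 7.70 on the clodronate-liposome arrays, against 7.37, 7.51 and 7.18 on the PBS-liposome arrays. Col4a6 read 7.66, 7.42 and 7.48 in clodronate-liposome ECs, against 6.95, 7.24 and 7.10 in PBS-liposome ECs. Both were separated in the same direction as Col4a3, with log2 differences of 0.56 (SE 0.14, adjusted p = 0.191) and 0.42 (SE 0.12, adjusted p = 0.223), and neither passed. Other probe sets of Col4a4 gave 0.67 and -0.31, so its probe sets disagreed in sign, and the other probe set of Col4a6 gave 0.32.

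Each type IV gene has a partner that starts close by on the opposite strand. By the outer ends of the gene models, Col4a3 starts at 82586921 and Col4a4 at 82587034 on chromosome 1, 113 bases apart and overlapping. On chromosome X, Col4a5 starts at 141475370 and Col4a6 at 141474095, 1275 bases apart and divergent. The Col4a4 window, chr1:82586800-82587099 on the minus strand, is set on a transcript start at 82586849, 185 bases inside the outer end of Col4a4. It is shown because it also spans the outer end of Col4a3, the other gene of a pair whose brightest probe sets were higher on every clodronate-liposome array. The 71 bases between that transcript start of Col4a4 and the outer end of Col4a3 are in capitals:
Col4a4: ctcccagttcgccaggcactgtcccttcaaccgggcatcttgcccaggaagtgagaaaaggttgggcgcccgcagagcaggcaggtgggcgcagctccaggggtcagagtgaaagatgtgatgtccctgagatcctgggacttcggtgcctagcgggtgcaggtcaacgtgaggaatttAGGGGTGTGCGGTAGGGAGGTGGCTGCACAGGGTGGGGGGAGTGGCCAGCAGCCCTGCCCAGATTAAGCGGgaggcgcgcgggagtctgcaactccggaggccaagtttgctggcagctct
It held 0 matches to the GC box, the CCAAT box, the TATA box TATAAA or the core of the interferon-stimulated response element (GAAA, any 2 bases, GAAA), on either strand. The last was found in 3.44% of all windows and in 0 of the 9 windows of the 8 members that had one, and TATAAA, found in 13.6% of all windows, was in 0 of the 9 as well.

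**Figure D2:**
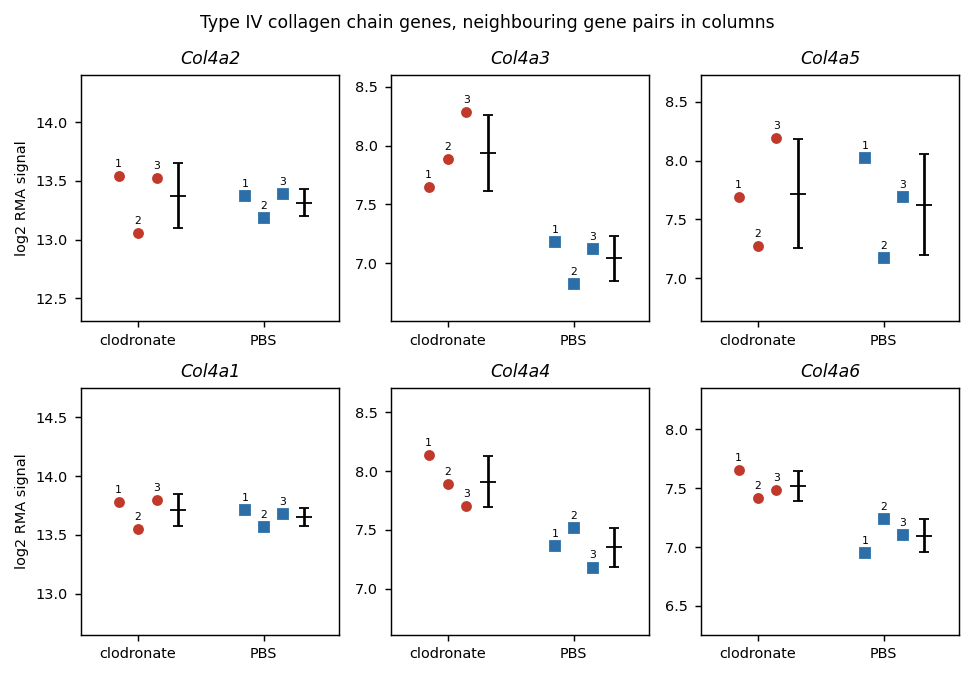
Log2 RMA signal (vertical axes, each spanning 2.1 log2 units) of the 6 type IV collagen chain genes on the clodronate-liposome (red circles) and PBS-liposome (blue squares) arrays, with neighbouring gene pairs in columns and black marks for the mean ± SD (n = 3 per group). Col4a3, Col4a4 and Col4a6 lay higher on every clodronate-liposome array, while Col4a1, Col4a2 and Col4a5 overlapped.

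Col8a1 (chromosome 16, 57624256 to 57754737), the collagen VIII gene, had a value that turned on 1 array. Its brightest probe set read 8.69, 8.77 and 8.94 in clodronate-liposome ECs, against 8.07, 8.90 and 8.82 in PBS-liposome ECs, with PBS-liposome replicate 1 as the one low value. The log2 difference was 0.20 (SE 0.21, interval -0.29 to 0.69, adjusted p = 0.811), and -0.06 without that array. Its other probe sets gave 0.33 (SE 0.16, adjusted p = 0.533) and 0.29 (SE 0.28). The first of these read 7.42, 7.37 and 7.46 in clodronate-liposome ECs, against 7.23, 6.71 and 7.34 in PBS-liposome ECs, a separation of 0.032.

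The multiplexin genes both belong to the signature of secreted-protein genes that the study had drawn from ECs of metastatic lungs on other arrays, and their values lay on opposite sides of 0 here. Col15a1 (chromosome 4, 47207655 to 47313167) read 11.77, 12.25 and 11.92 on the clodronate-liposome arrays, against 11.09, 11.37 and 11.52 on the PBS-liposome arrays. Every clodronate-liposome array exceeded every PBS-liposome array, by at least 0.25, and the signal was well above the array median. Its means were 11.98 ± 0.24 in clodronate-liposome ECs and 11.33 ± 0.22 in PBS-liposome ECs (SD, n = 3 each), a log2 difference of 0.65 (SE 0.16, interval 0.29 to 1.02), 1.57-fold higher. It did not pass over all probe sets (limma, adjusted p = 0.175). The difference stayed between 0.52 and 0.76 with any 1 array left out, and was 0.84 with the hybridization controls as a covariate. Col15a1 is represented by 1 probe set, so no second reading was available.

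Col18a1 (chromosome 10, 77052178 to 77166530), the endostatin gene, read 10.30, 10.43 and 10.22 in clodronate-liposome ECs, against 10.29, 10.28 and 10.85 in PBS-liposome ECs. The groups overlapped, and PBS-liposome replicate 3 stood above the other 5 arrays. The log2 difference was -0.16 (SE 0.16, interval -0.53 to 0.22, adjusted p = 0.817), and 0.03 without that array. Its second probe set read 10.37, 10.01 and 10.22 in clodronate-liposome ECs, against 10.44, 10.32 and 10.92 in PBS-liposome ECs. This gave -0.36 (SE 0.17, adjusted p = 0.517), more than 2-fold the size of the first, with PBS-liposome replicate 3 again the highest array.

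A RefSeq window of Col15a1 is shown because its groups did not overlap. It is set on a transcript start at 47208012, which lies 357 bases inside the outer end of the gene model, so the whole window is within the annotated gene and the outer start was not searched. The window, chr4:47207762-47208061 on the plus strand of GRCm38.p6, is printed with the 50 bases from that transcript start onwards in capitals:
Col15a1: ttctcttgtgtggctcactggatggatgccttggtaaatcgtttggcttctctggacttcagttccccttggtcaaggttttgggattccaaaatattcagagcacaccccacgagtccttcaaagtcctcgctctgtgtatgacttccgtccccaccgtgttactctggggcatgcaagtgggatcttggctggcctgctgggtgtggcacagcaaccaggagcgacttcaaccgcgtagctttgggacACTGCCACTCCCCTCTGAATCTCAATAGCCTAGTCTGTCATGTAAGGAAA
It held 0 matches to any of the 4 motifs, and its GC content of 52.3% was near the median of all windows. Of the 9 member windows, 7 held the GC box and 5 the CCAAT box, against 35.7% and 37.4% of all windows. The 9 are not independent, as Col18a1 has more than 1 window and those of Col4a1 and Col4a2 share bases. The single GC box of the Col4a1 window lies in those shared bases. No window was found for Col4a3 or Nid2.

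The linker proteins showed little difference. Nid1 (chromosome 13, 13437602 to 13512275) read 13.37, 13.15 and 13.34 in clodronate-liposome ECs, against 13.28, 13.24 and 13.25 in PBS-liposome ECs. The PBS-liposome arrays lay inside the range of the clodronate-liposome arrays, and the log2 difference was 0.03 (SE 0.10, interval -0.20 to 0.26, adjusted p = 0.948). Its second probe set gave -0.03 (SE 0.088) and another one -0.25 (SE 0.18), so the sign of the Nid1 difference depended on the probe set. Nid2 (chromosome 14, 19751257 to 19811787) read 8.83, 8.57 and 8.71 in clodronate-liposome ECs, against 8.27, 8.53 and 8.91 in PBS-liposome ECs. The PBS-liposome values enclosed all clodronate-liposome values, and the log2 difference was 0.13 (SE 0.17, interval -0.25 to 0.51, adjusted p = 0.854).

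Hspg2 (chromosome 4, 137468751 to 137570630) encodes perlecan, the large heparan sulfate proteoglycan of the membrane. It read 9.63, 10.004 and 9.74 in clodronate-liposome ECs, against 10.03, 9.69 and 9.67 in PBS-liposome ECs. The groups covered nearly the same range, and the log2 difference was -0.0050 (SE 0.14, interval -0.33 to 0.32, adjusted p = 0.997). The other probe set of Hspg2 read 9.03, 9.88 and 9.23 in clodronate-liposome ECs, against 9.14, 9.22 and 9.54 in PBS-liposome ECs, a log2 difference of 0.08 (SE 0.22). Clodronate-liposome replicate 2 was the highest array of its group in both probe sets. The brightest probe set of Hspg2 and the second one of Col18a1 are of the type that the maker marks as matching several transcripts.

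**Figure D3:**
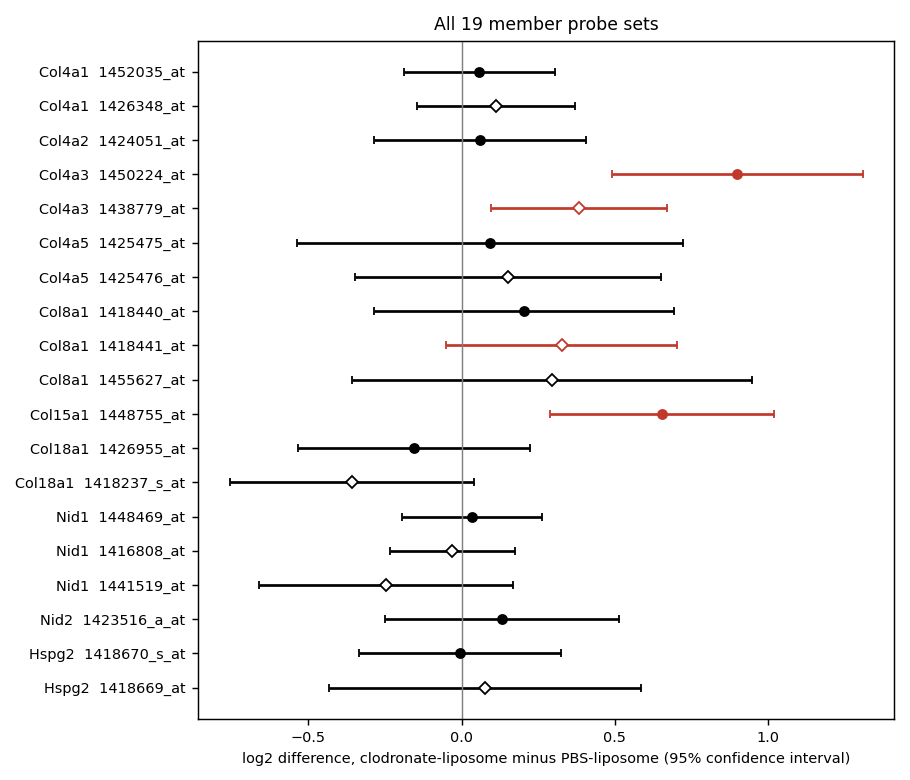
Log2 difference, clodronate-liposome minus PBS-liposome (horizontal axis), of all 19 member probe sets with 95% confidence intervals from the fit across the array, filled circles for the brightest probe set of a gene and open diamonds for the others. Red marks the 4 probe sets whose groups did not overlap, and the intervals of 3 of them, 2 of Col4a3 and 1 of Col15a1, lay above 0.

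Some members ran opposite to the control signals: Col4a1, Col4a2 and Nid1 were each lowest in clodronate-liposome replicate 2 of the 6 arrays. Hybridization controls in that replicate (12.20) were above those of clodronate-liposome replicates 1 and 3 (11.91 and 11.94) and within the PBS-liposome range. The mean of 12 pan-endothelial markers was 13.22, 13.03 and 13.13 on the clodronate-liposome arrays, against 13.08, 13.05 and 13.11 on the PBS-liposome arrays, also lowest in that replicate. With the hybridization controls as a covariate Col4a1 and Col4a2 gave -0.06 and -0.18, and neither passed (adjusted p = 0.880 and 0.607). With replicate 2 as the only clodronate-liposome array they gave -0.10 and -0.26, while Col4a3 and Col15a1 gave 0.84 and 0.92.

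**Figure D4:**
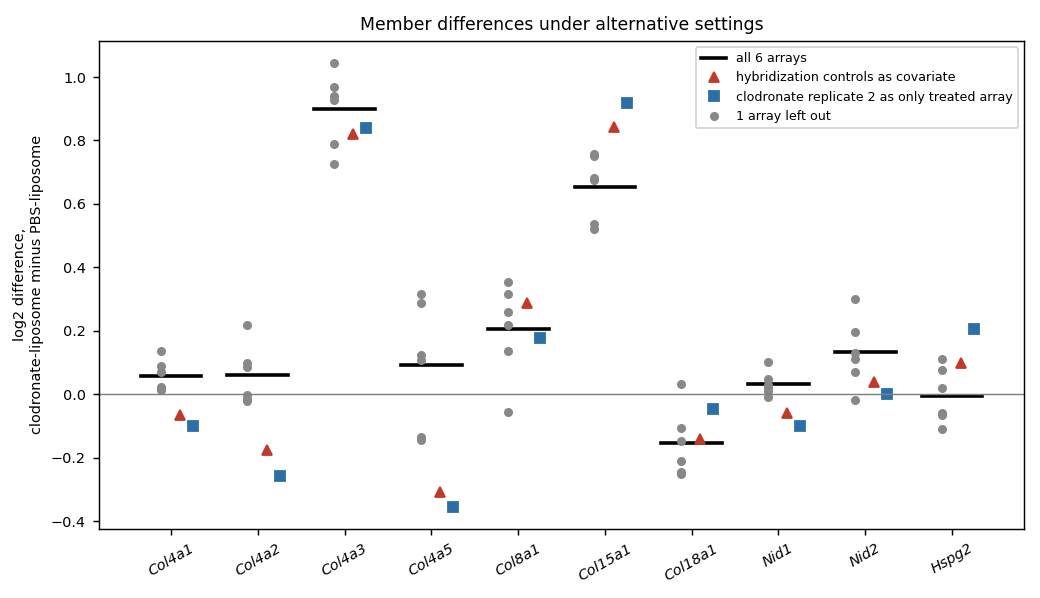
Log2 difference, clodronate-liposome minus PBS-liposome (vertical axis), of the 10 members by their brightest probe sets, with black lines for all 6 arrays, grey circles for fits with 1 array left out, red triangles for the hybridization controls as a covariate and blue squares for replicate 2 standing alone for clodronate-liposome treatment. Col4a3 and Col15a1 stayed above 0 in every setting drawn, whereas all other members but Col4a1 crossed 0 with some array left out, and Col4a1 crossed it in both remaining settings.

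Among the partners of these genes, laminins and other basement membrane components gave 1 lower and 0 higher of 24 measured genes. Over all 18193 genes by their brightest probe sets, 63 passed lower and 16 higher. The 1 lower partner was Lama1, which encodes a laminin alpha chain and is in the study's secreted-protein signature. It read 8.65, 8.77 and 8.95 in clodronate-liposome ECs, against 10.12, 9.61 and 9.96 in PBS-liposome ECs (log2 difference -1.10, SE 0.15, adjusted p = 0.0355). The groups did not overlap, and the median of the list was -0.06. The paper also reported lower Lama1 by quantitative PCR in lung ECs of macrophage-depleted mice. The call of Lama1 ended when any 1 array was left out, with log2 differences of -1.24 to -0.99 and adjusted p of 0.0773 to 0.145. It also ended with the replicate number as a block (-1.10, adjusted p = 0.0870), with hybridization control signal as a covariate (-1.19, adjusted p = 0.191) and with replicate 2 standing alone for clodronate-liposome treatment (-1.12, adjusted p = 0.440).

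Other nonfibrillar collagens, 14 measured, gave 0 past the threshold in either direction and a median of 0.04. Col12a1, a fibril-associated collagen, had the smallest p of this list and read 10.37, 9.96 and 10.05 in clodronate-liposome ECs, against 9.65, 9.43 and 9.52 in PBS-liposome ECs (log2 difference 0.60, SE 0.13, adjusted p = 0.145). Other probe sets of Col12a1 gave 0.43, 0.04 and 0.0037. Besides Col4a4 and Col4a6, Col23a1, a transmembrane collagen, gave 0.33 (SE 0.17, adjusted p = 0.554), with 0.62 and -0.09 in its other probe sets. Genes that fold, secrete and crosslink collagen, 22 measured, likewise gave 0 past the threshold, with a median of 0.03. P4ha1 and P4ha3, which encode catalytic subunits of prolyl 4-hydroxylase, gave -0.43 (SE 0.14, adjusted p = 0.292) and -0.48 (SE 0.13, adjusted p = 0.217). In both, all 3 clodronate-liposome arrays lay below the PBS-liposome arrays, as in 3 of the 22 genes and in 1591 of all 18193 genes. The prolyl 3-hydroxylase gene P3h1 gave 0.30 (SE 0.12, adjusted p = 0.428) and -0.07 in its other probe set, and the lysyl oxidase family gene Loxl3 -0.27 (SE 0.11, adjusted p = 0.448).

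Receptors for collagen and basement membrane, 14 measured, gave 0 past the threshold and a median of -0.02. The integrin beta chain genes Itgb4 and Itgb3 gave -0.54 (SE 0.10, adjusted p = 0.0958) and -0.60 (SE 0.12, adjusted p = 0.111). Ddr2, a collagen-sensing receptor tyrosine kinase, gave 0.58 (SE 0.13, adjusted p = 0.148), and 0.17 in its other probe set. In these 3 genes the groups did not overlap, Itgb4 and Itgb3 lower and Ddr2 higher in clodronate-liposome ECs. Over all 18193 genes, 1591 were separated lower and 1362 higher. The integrin alpha chain gene Itgav gave 0.13 (SE 0.11, adjusted p = 0.755), and 0.012 in the probe set farthest from that value.

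Tip cell genes, which mark sprouting ECs and were listed because sprouts lay down type IV collagen, gave 0 of 16 past the threshold and a median of -0.0066. Apln, the apelin gene, gave 0.40 (SE 0.12), Pgf, a VEGF family ligand, 0.38 (SE 0.12), Angpt2 0.44 (SE 0.16) and the calcitonin receptor partner gene Ramp3 -0.56 (SE 0.17), with adjusted p between 0.274 and 0.369.

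**Figure D5:**
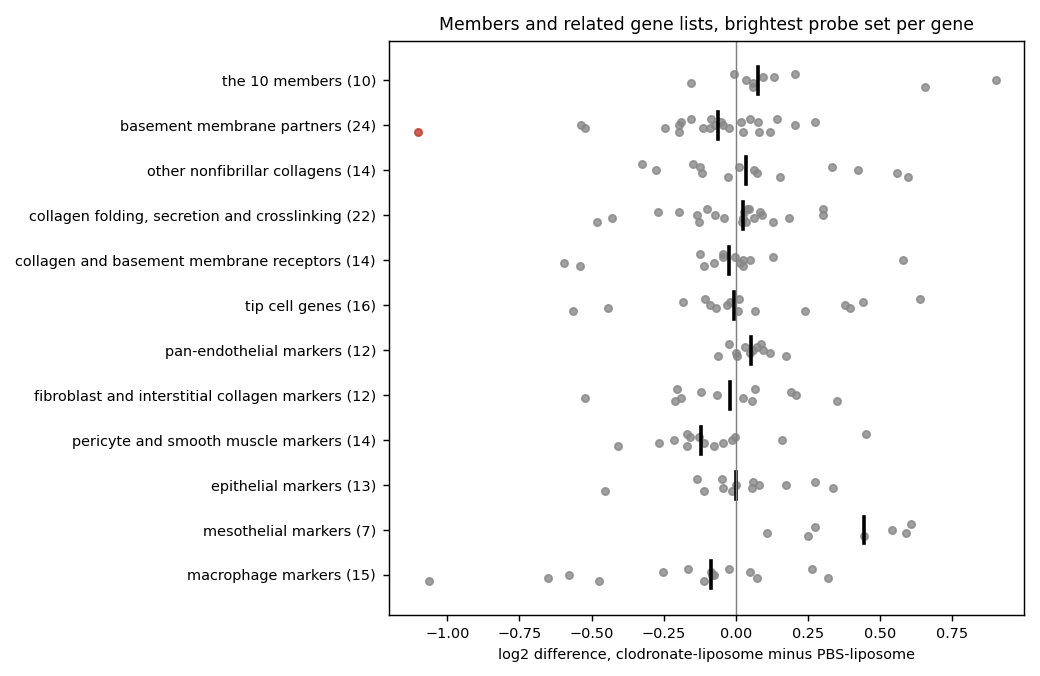
Log2 difference, clodronate-liposome minus PBS-liposome (horizontal axis), of the 10 members and of the measured genes of 11 related lists (number in brackets), with each dot a gene by its brightest probe set, black bars the medians and red the genes with adjusted p under 0.05. Lama1 was the only red dot, and the medians of the members and of the mesothelial markers were 0.08 and 0.45.

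The label of the sorted cells was checked on 12 pan-endothelial markers. Pecam1, which encodes CD31, read 13.53 to 13.70 on the clodronate-liposome arrays, against 13.50 to 13.58 on the PBS-liposome arrays, and Cdh5, VE-cadherin, 13.25 to 13.58 against 13.34 to 13.42. By limma 0 of the 12 passed, with 0 at an unadjusted p under 0.05, and the median was 0.05. Basement membrane genes are also made by fibroblasts, mural cells, epithelium and mesothelium, and in bulk samples a change in the share of such cells cannot be told apart from a change of RNA per cell.

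Of 12 fibroblast and interstitial collagen markers 0 passed, 6 were above 0 and 6 below, and the median was -0.02, with mean signals of 9.89 to 10.29 in clodronate-liposome ECs and 10.09 to 10.19 in PBS-liposome ECs. The 4 with the smallest p were the fibrillar collagen genes Col5a1 and Col5a2, decorin, Dcn, and periostin, Postn. Col5a1 gave 0.35, with 0.06 and 0.17 in its other probe sets. Col5a2 gave 0.21, and its other probe set 0.61 (SE 0.13, limma adjusted p = 0.131), where the groups did not overlap. Dcn gave -0.52, with 0.06 in another probe set, and Postn 0.19. By the brightest probe sets the adjusted p of the 4 lay between 0.253 and 0.705. Col1a1, Col1a2 and Pdgfra, which encodes the gated CD140a, gave -0.21, -0.20 (-0.011 in another probe set) and -0.19. Of 14 pericyte and smooth muscle markers 0 passed, with 8.20 to 8.25 in clodronate-liposome ECs and 8.26 to 8.34 in PBS-liposome ECs. Their median was -0.12, with 2 above 0 and 12 below. Those with the smallest p were Kcnj8 (-0.41), Pdgfrb, which encodes the gated CD140b (-0.27), Acta2 (-0.21, with -0.04 in another probe set) and Higd1b (-0.16). The 2 above 0 were the pericyte marker Rgs5 and Des. Rgs5 gave 0.45 (SE 0.28, limma adjusted p = 0.642), with 0.40, -0.011 and 0.55 in its other probe sets. Des gave 0.16, with 0.04 in its other probe set. Of 13 epithelial markers 0 passed, with 8.25 to 8.69 in clodronate-liposome ECs and 8.44 to 8.60 in PBS-liposome ECs, and the median was -0.00067. Of these 13, 6 were above 0 and 7 below. The 4 with the smallest p were Nkx2-1 (-0.45), Krt8 (0.33, with 0.36 and 0.16 in its other probe sets), Sftpb (0.17) and Krt19 (0.27). Their limma adjusted p lay between 0.379 and 0.762. The surfactant protein gene Sftpc was uneven across arrays, with the largest SE of this list. It read 8.49, 12.78 and 11.47 in clodronate-liposome ECs, against 11.38, 10.14 and 11.35 in PBS-liposome ECs. Its log2 difference was -0.05 (SE 0.95), and 0.43 (SE 0.86) in its other probe set. Of 15 macrophage markers 0 passed, with 8.08 to 8.23 in clodronate-liposome ECs and 8.19 to 8.49 in PBS-liposome ECs. Their median was -0.09, with 4 above 0 and 11 below. The smallest p belonged to Cybb, an NADPH oxidase gene of phagocytes, and Csf1r, the macrophage growth factor receptor. Cybb gave -1.06 (SE 0.19, adjusted p = 0.0871), with -0.45 and -0.78 in its other probe sets. Csf1r gave -0.65 (SE 0.12, adjusted p = 0.101), with -1.24 and -0.17 in its other probe sets. Ptprc, which encodes the gated CD45, gave -0.58 (-0.05 in its other probe set) and C1qc -0.25. In the other direction lay Fcgr1 (0.32, but -0.23 in its other probe set), Siglecf (0.26, groups separated), Mertk (0.07) and Mrc1 (0.05). Siglecf was dim, with a mean of 6.07 over the 6 arrays, against an array median of 8.13. Lyz2 gave -0.03.

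All 7 mesothelial markers were above 0, with 0 past the threshold and Muc16 nearest to it (0.25, SE 0.099, adjusted p = 0.416). Their mean signal was 7.54, 7.17 and 8.60 on the clodronate-liposome arrays, against 7.55, 7.27 and 7.28 on the PBS-liposome arrays, so that clodronate-liposome replicate 3 alone stood high. Col4a3 and Col4a5 were highest on that array as well (8.29 and 8.19) by their brightest probe sets, whereas the other probe set of Col4a3 was the lowest of its group there (6.95). Without clodronate-liposome replicate 3 the log2 difference was 0.72 (SE 0.15, adjusted p = 0.249) for Col4a3 and -0.15 (SE 0.26) for Col4a5. Col15a1 was highest in clodronate-liposome replicate 2, where the mesothelial mean was the lowest of the 6 arrays. The part of mesothelial RNA in the values of Col4a3, Col4a5 and Col15a1 was not tested.

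The genes whose profiles over the 6 arrays came closest to Col4a3, the member with the largest difference by its brightest probe set, were Nxt2, Icos, Gprin2, Irak1bp1 and Dzip1. Their root mean square differences from Col4a3, after each profile was centred on its mean, were 0.158 to 0.184 log2 units. Nxt2, for example, read 9.25, 9.50 and 9.73 in clodronate-liposome ECs, against 8.52, 8.61 and 8.87 in PBS-liposome ECs. Because the 5 were picked for likeness to Col4a3, their higher values on the clodronate-liposome arrays followed from that choice. Their tests are therefore no separate result. None of the 5 is a collagen or basement membrane gene. Icos, which encodes a T cell costimulator, was the 1 of them that passed over all probe sets (log2 difference 0.82, SE 0.11, limma adjusted p = 0.0337). That call ended with any 1 array left out (0.75 to 0.87, adjusted p of 0.0683 to 0.138), with the replicate number as a block (0.82, adjusted p = 0.0825), with the covariate (0.73, adjusted p = 0.196) and with replicate 2 alone (0.74, adjusted p = 0.447).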

How the data were processed

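RNA of sorted lung ECs was hybridised to Affymetrix mouse genome arrays, 1 per sample. The authors made the deposited log2 values in Chipster 3.8.0 by RMA (robust multiarray average), which corrects background, equalises the arrays and summarises each probe set. RMA compresses differences of dim probe sets and equalises overall shifts. No scanner files were used here.

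Of 45101 probe sets, 64 controls were set aside and 45037 tested by a linear model of clodronate-liposome minus PBS-liposome without covariates (limma 3.58.1 under R 4.3.3, moderated two-sided test), with Benjamini-Hochberg adjustment over all of them and a threshold of 0.05. Having 3 arrays in each group bounds the precision, and an exact permutation test of 3 against 3 cannot go below p = 0.1. The labels call the replicates biological without giving the mice per replicate, so p values measure the spread between these samples. Symbols came from the platform annotation, which gave 34945 probe sets 1 symbol, 932 several and 9160 none. All member symbols matched RefSeq genes of GRCm38.p6. A gene is given by its probe set with the highest mean, and others where they differ in sign or over 2-fold in size. Each list is described by genes that passed or by up to 4 with the smallest p. The members and lists were chosen with earlier results of these data known. The fit was tested on simulated data. Alternatives were a second quantile normalization, median centring, a filter at the median signal, trended and robust variances, array weights, the replicate number as a block, hybridization controls as a covariate, replicate 2 as the only treated array, each array left out and the mean of a gene's probe sets.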

Additional observations from a re-analysis of the deposited data

How the results depend on the processing

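The 19 member probe sets gave 0 past the threshold in the fit with all arrays and in each of the 14 alternatives that were run on probe sets. Their smallest adjusted p lay between 0.0612 (array weights) and 0.447 (replicate 2 as the only clodronate-liposome array). Averaging the probe sets of a gene brought Col4a3 past it (0.64, adjusted p = 0.0412), in a fit that was not repeated with arrays left out. Over the whole array, 138 probe sets passed. The count was 244 with the filter on low signal, 248 with trended and robust variances, 234 with array weights, 0 with the replicate number as a block (5033 at unadjusted p under 0.05), 0 when hybridization control signal was a covariate (4710) and 0 with replicate 2 as the only clodronate-liposome array (3964), all by limma. With 1 array left out it ranged from 6 without PBS-liposome replicate 2 to 73 without clodronate-liposome replicate 2. The labels do not say whether equal replicate numbers pair the samples, and the main fit took the arrays as unpaired. Same-numbered arrays correlated in their deviations from the group means by 0.075, 0.070 and 0.036. Arrays of unlike numbers gave -0.058 to -0.0065, so each clodronate-liposome array correlated best with its own number. Whether same-numbered samples were handled together was not tested.

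Col4a3 and Col15a1 kept their direction in every alternative that tested them. Col4a1, Col4a2, Col4a5, Col8a1, Col18a1, Nid1, Nid2 and Hspg2 each changed sign in at least 1. With the hybridization controls as a covariate Col4a1 gave -0.064, Col4a2 -0.18, Col4a5 -0.31, Nid1 -0.058 and Hspg2 0.10. With replicate 2 as the only clodronate-liposome array they gave -0.10, -0.26, -0.35, -0.10 and 0.21, in the same order. With all probe sets of a gene averaged, Nid1 gave -0.081 and Hspg2 0.04. With 1 array left out the ranges were -0.023 to 0.22 for Col4a2, -0.15 to 0.32 for Col4a5, -0.057 to 0.35 for Col8a1, -0.25 to 0.032 for Col18a1, -0.0087 to 0.10 for Nid1, -0.017 to 0.30 for Nid2 and -0.11 to 0.11 for Hspg2. The cause was not tested. The filter on low signal removed 6 of the 19 member probe sets, among them those of Col4a3 and Col4a5. The same settings were run for Lama1 and Icos after seeing the data: both kept their direction, and lost their calls in the block, covariate, replicate 2 and left-out-array settings.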
